A study of Mus musculus with 6 samples.

Results

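The 10 genes described here belong to the interleukin-4 (IL-4) and interleukin-10 (IL-10) pathways of macrophages and to the effector genes of the IL-4-driven (M2) state. They were chosen by name, with earlier results of these data known, and are 10 of the 47729 genes counted. The 10 are Il4ra, Il13ra1, Il10, Il10ra, Il10rb, Chil3, Retnla, Mgl2, Socs3 and Stat6. RNA-seq was performed on bone marrow macrophages (BMMs) from mice lacking Aif1, which encodes the calcium-binding macrophage protein AIF1 (also called IBA1), and from wild-type (WT) mice. There were 3 Aif1-/- libraries and 3 WT libraries. Both genotypes were male C57BL/6J mice, 8 weeks old, and both sets of BMMs had been immortalized with SV40 large T antigen, grown with 120 ng/ml of CSF-1 and 10% serum, and used at passages 3 to 5. Neither genotype is labelled as having received IL-4, IL-13 or IL-10, so all values are those of cells growing in CSF-1. The animals are described as independent, but whether each library came from its own immortalized line is not stated, and the p-values therefore measure the spread between these libraries.

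IL-4 binds IL-4Rα (Il4ra), which signals together with either the common gamma chain (Il2rg) or IL-13Rα1 (Il13ra1). The second of these receptors also binds IL-13. Janus kinases on the receptor chains then phosphorylate STAT6, and in mouse macrophages STAT6 induces Arg1, Chil3 (the chitinase-like protein Ym1), Retnla (the secreted protein RELMα or FIZZ1) and Mgl2 (the galactose-type lectin CD301b). IL-10 binds IL-10R1 (Il10ra) and recruits IL-10R2 (Il10rb), a chain shared with other cytokines of its family. JAK1 and TYK2 then activate STAT3, which induces Socs3, an inhibitor of cytokine receptor signalling, and damps inflammatory gene expression.

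Between 17707986 and 29314253 reads per library were assigned to genes. Aif1 had 4, 4 and 1 counts in Aif1-/- BMMs, against 220, 157 and 239 counts in WT BMMs, as labelled. All 10 macrophage markers checked were expressed; 6 were higher in Aif1-/- BMMs and 1, Cd14, was lower, and their summed level was 6017 to 6156 CPM (counts relative to the library total) in Aif1-/- libraries and 4454 to 5295 CPM in WT libraries. Of 6 megakaryocyte and platelet markers, 4 were tested and 3, Pf4, Ppbp and Treml1, were higher. The summed level of the 6 was 85.2 to 89.1 CPM in Aif1-/- libraries and 39.7 to 44.6 CPM in WT libraries. Most of it was Pf4, while Itga2b did not pass and Gp1bb had 0 counts in every library. Ppbp met the low-count filter only through its Aif1-/- libraries, so its call is a description. Of 8 T cell and ILC2 markers, 3 were tested, of which Il7r was higher and Gata3 lower. The summed level of the 8 was 193 to 203 CPM in Aif1-/- libraries and 165 to 178 CPM in WT libraries. Most of it was Il7r, while Cd3e had 0 counts in every library. The call of Gata3 is a description too, because Gata3 met the filter only through its WT libraries. No tested marker of B cells, mast cells and basophils, eosinophils or dendritic cells was called. No granulocyte or fibroblast marker had enough counts to be tested. The part these marker shifts play in the values below was not tested. In these bulk samples, fewer expressing cells and less RNA per cell cannot be told apart. The Aif1-/- libraries varied less among themselves, with an SD of log2 CPM of 0.231 across tested genes, than the WT libraries, at 0.384. The chi-square per gene between paired counts was 2.14 to 2.84 among Aif1-/- libraries and 8.67 to 37.0 among WT libraries. Between genotypes it was 33.4 to 57.1, so WT replicates 2 and 3 differed more than some pairs of unlike genotype. This measure grows with read depth, and the origin of the spread was not tested.

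Among the 10 genes, Il4ra, Il10 and Il10ra were higher in Aif1-/- BMMs and Il13ra1 was lower. Il10rb, Socs3 and Stat6 did not pass the test, Chil3 and Retnla had no counts in any library, and Mgl2 had too few counts to be tested. The test was edgeR's quasi-likelihood test on raw counts, with Benjamini-Hochberg adjusted p-values over all 17406 tested genes and a threshold of 0.05. Across those genes 18.6% were called, 8.04% as higher and 10.5% as lower in Aif1-/- BMMs, so 3 higher and 1 lower of the 7 tested stand against that background. The normalized counts of the genotypes did not overlap for 4 of the 7, against 35.7% of all tested genes. The median log2 fold change of the 7 was 0.12, against -0.0035 over all tested genes. Because Il10 passed the low-count filter only through its Aif1-/- libraries, these counts are descriptions. The number of genes called over the whole table was 3231, and it was 2040, 2113 and 2140 without Aif1-/- replicates 1, 2 and 3 and 4889 without WT replicate 3.

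**Figure D1:**
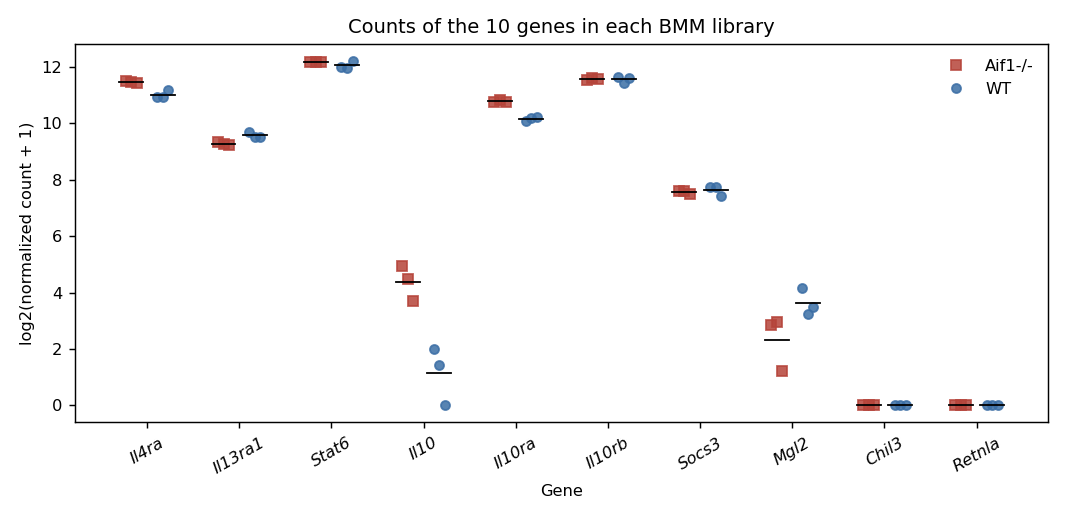
Levels of the 10 genes in each library as log2 of the normalized count plus 1, with Aif1-/- left of WT for each gene; points are libraries and horizontal lines are group means of the plotted values. Il4ra, Il10 and Il10ra lie higher in all 3 Aif1-/- libraries than in all 3 WT libraries, Il13ra1 and Mgl2 lie lower, and the genotypes overlap for Il10rb, Socs3 and Stat6.

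Of the receptor chains for IL-4, Il4ra (ENSMUSG00000030748, chr7:125552120-125579474 in GRCm38, plus strand) had 2899, 2862 and 2794 normalized counts in Aif1-/- BMMs, against 1979, 1964 and 2326 in WT BMMs. Normalized counts are counts scaled by library size and TMM factor to the mean library. Every Aif1-/- library was above every WT library, and the means were 2852 ± 53.1 and 2090 ± 205 (SD, n = 3 each). The log2 fold change, Aif1-/- over WT, was 0.45 (SE 0.08, 95% interval 0.27 to 0.63, edgeR adjusted p = 0.00268). Il13ra1 (ENSMUSG00000017057, chrX:36112110-36171259, plus strand) had 650, 615 and 596 normalized counts in Aif1-/- BMMs, against 836, 735 and 737 in WT BMMs. Its log2 fold change was -0.31 (SE 0.09, 95% interval -0.51 to -0.11, edgeR adjusted p = 0.0390). The call for Il13ra1 lay close to the threshold and was lost without any 1 of the Aif1-/- replicates or without WT replicate 1, with adjusted p up to 0.188, and with DESeq2, limma-voom or no filter (adjusted p of 0.0576, 0.0520 and 0.0655). Il2rg, the third chain of the IL-4 system, had 541, 679 and 653 normalized counts in Aif1-/- BMMs, against 1060, 1077 and 1214 in WT BMMs, a log2 fold change of -0.84 (SE 0.10, edgeR adjusted p = 0.000248).

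RNA assigned to Il4, the gene of the IL-4 ligand, was detected, with 45, 44 and 21 raw counts in Aif1-/- BMMs, against 92, 72 and 104 in WT BMMs. Its log2 fold change was -0.94 (SE 0.30), and its edgeR adjusted p of 0.0556 did not pass, although every Aif1-/- library was below every WT library in normalized counts. It passed in 6 of the 15 alternative analyses, among them those without Aif1-/- replicate 2 or WT replicate 2, with adjusted p of 0.0388 and 0.0197. Il13, whose product uses the same IL-4Rα chain, had 0, 0 and 1 counts in Aif1-/- BMMs, against 2, 0 and 0 in WT BMMs, and the decoy receptor gene Il13ra2 had 0 counts in every library.

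Stat6 (ENSMUSG00000002147, chr10:127642986-127660957, plus strand), the transcription factor that relays IL-4, had 4630, 4675 and 4669 normalized counts in Aif1-/- BMMs, against 4110, 4001 and 4735 in WT BMMs. WT replicate 3 was above every Aif1-/- library, so the groups overlapped. The log2 fold change was 0.12 (SE 0.08, 95% interval -0.05 to 0.29, edgeR adjusted p = 0.341), but without WT replicate 3 it was 0.21 and passed, with adjusted p = 0.00735. Among the kinases, STATs and adaptors that act between these receptors and the nucleus, 10 of 11 were tested and 3 were called, against 18.6% of all tested genes. Jak3, the kinase bound to the common gamma chain, was higher at 0.42 (edgeR adjusted p = 0.0198), while Jak1, which serves both receptors, was lower at -0.22 (adjusted p = 0.0427). The Jak3 call was lost without Aif1-/- replicate 2 or 3 or WT replicate 1, and the Jak1 call without any 1 Aif1-/- replicate or WT replicate 1 and with no filter on low counts (adjusted p = 0.0826). Irs2 (0.32, adjusted p = 0.0683), an adaptor of the IL-4 receptor, passed in 7 of the 15 alternatives, DESeq2 among them (adjusted p = 0.0450), and without WT replicate 3 it was 0.47 (adjusted p = 9.36e-05).

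For the IL-10 pathway, the ligand Il10 (ENSMUSG00000016529, chr1:131019845-131024974, plus strand) had 34, 16 and 9 raw counts in Aif1-/- BMMs, against 3, 2 and 0 in WT BMMs. Every Aif1-/- library was above every WT library, but the Aif1-/- libraries themselves spread widely, with a coefficient of variation of 43.2%. The summed counts were 59 and 5, a ratio of 14.99 after scaling (95% counting interval 6.08 to 47.9, counting error only). The fitted log2 fold change was 3.73 (SE 0.72, 95% interval 2.13 to 5.34, edgeR adjusted p = 0.00446), and it was 4.47 without WT replicate 1. Il10 passed the low-count filter only through its Aif1-/- libraries, so its call is a description. Levels this low remain imprecise: a count of 0 in a WT library allows up to 3 counts.

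Il10ra (ENSMUSG00000032089, chr9:45253837-45269149, minus strand), the chain that binds IL-10, had 1743, 1815 and 1716 normalized counts in Aif1-/- BMMs, against 1093, 1169 and 1187 in WT BMMs. The groups were far apart relative to their spread, and the means were 1758 ± 51.5 and 1150 ± 50.04 (SD, n = 3 each). Its log2 fold change was 0.61 (SE 0.07, 95% interval 0.46 to 0.77, edgeR adjusted p = 0.000133), and it passed in all 15 alternatives at 0.58 to 0.64. Il10rb (ENSMUSG00000022969, chr16:91406164-91425834, plus strand), the accessory chain, had 2962, 3116 and 3038 normalized counts in Aif1-/- BMMs, against 3172, 2790 and 3138 in WT BMMs. The groups overlapped, and the 95% interval of the log2 fold change, -0.16 to 0.16 around 0.00, bounds any difference (edgeR adjusted p = 0.988). Il10rb shares 14.9% of its exon bases with Gm21970 on the same strand, a gene with 0 counts in every library, so reads in the shared part may be missing from Il10rb.

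Socs3 (ENSMUSG00000053113, chr11:117966079-117970047, minus strand), the STAT3-induced inhibitor, had 194, 196 and 182 normalized counts in Aif1-/- BMMs, against 212, 213 and 172 in WT BMMs. The groups overlapped and the log2 fold change was -0.06 (SE 0.14, 95% interval -0.38 to 0.25, edgeR adjusted p = 0.838). Among 14 feedback inhibitors of cytokine signalling, all were tested, 2 were higher and none was lower, a share near the 18.6% called of all tested genes. The higher pair were Inpp5d, which encodes the phosphatase SHIP1 (0.47, edgeR adjusted p = 0.000541), and Ptpn1, which encodes PTP1B (0.40, adjusted p = 0.00632). Cish and Socs1 had log2 fold changes of -1.13 and -1.16 and missed the threshold, with edgeR adjusted p of 0.0550 and 0.0577. Each passed in 3 of the 14 alternatives that could test it. Cish passed with limma-voom, no filter and the covariate (adjusted p of 0.0493, 0.0470 and 0.0236), and Socs1 with no filter, the covariate and without WT replicate 2 (adjusted p of 0.0179, 0.0214 and 0.0302). The covariate is each library's share of reads matched to no gene.

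**Figure D2:**
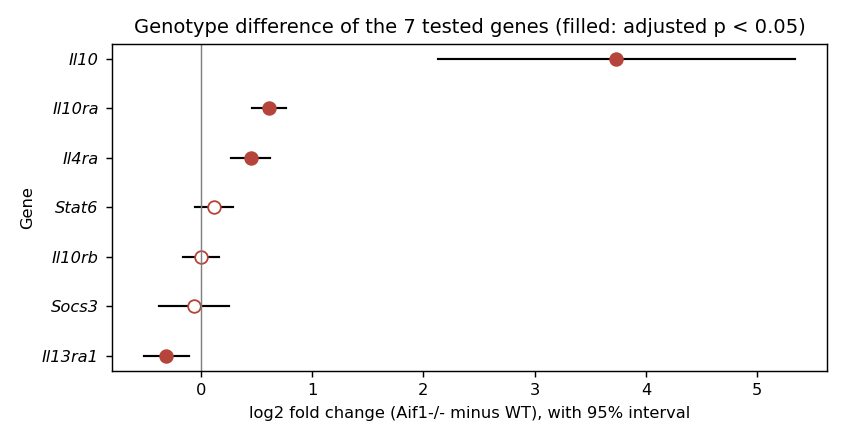
Log2 fold changes of the tested members, Aif1-/- over WT, with 95% intervals from edgeR. Il10 stands highest at 3.73 with a wide interval, Il10ra and Il4ra are above 0, Il13ra1 is below 0, and the intervals of Il10rb, Socs3 and Stat6 cross 0.

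Of the 3 effector genes among the members, Chil3 and Retnla were at 0 and Mgl2 was near 0 counts. Chil3 (ENSMUSG00000040809, chr3:106147554-106167564, minus strand) and Retnla (ENSMUSG00000061100, chr16:48842551-48844461, plus strand) had 0 counts in all 6 libraries, which allows up to 0.0483 CPM over the Aif1-/- libraries and 0.0380 CPM over the WT libraries. Of the Chil3 transcript's 75-base windows, 14.2% also occur in Chil4 or Gm6522, and Chil4 had 0 counts as well. Mgl2 (ENSMUSG00000040950, chr11:70130329-70137550, plus strand) had 7, 5 and 1 raw counts in Aif1-/- BMMs, against 17, 10 and 12 in WT BMMs. Every Aif1-/- library was lower, and the ratio of the summed counts, 13 and 39, was 0.424 after scaling (95% counting interval 0.207 to 0.811). It fell below the low-count filter, and with no filter its log2 fold change was -1.26 (SE 0.69, edgeR adjusted p = 0.304), which did not pass. Clec10a, the related lectin gene at chr11:70156197-70170834 that shares 6.42% of its windows with Mgl2, had 41, 27 and 21 raw counts in Aif1-/- BMMs, against 100, 97 and 119 in WT BMMs, a log2 fold change of -1.49 (edgeR adjusted p = 0.00101).

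The promoters of the effectors and Socs3 are shown because STAT6 and STAT3 bind the palindromes TTCNNNNGAA and TTCNNNGAA, which read the same on both strands. Sequences run from 250 bases before to 50 after the start (RefSeq, GRCm38.p6) and matched 7 of the 10 genes, all but Il10, Il10ra and Il10rb. Capitals mark a match. Retnla (chr16:48842359-48842658, plus strand) holds the STAT6 palindrome, and Chil3 (chr3:106167515-106167814, minus strand) and Socs3 (chr11:117969317-117969616, minus strand) hold the STAT3 palindrome with the same letters, TTCTTAGAA.
Retnla: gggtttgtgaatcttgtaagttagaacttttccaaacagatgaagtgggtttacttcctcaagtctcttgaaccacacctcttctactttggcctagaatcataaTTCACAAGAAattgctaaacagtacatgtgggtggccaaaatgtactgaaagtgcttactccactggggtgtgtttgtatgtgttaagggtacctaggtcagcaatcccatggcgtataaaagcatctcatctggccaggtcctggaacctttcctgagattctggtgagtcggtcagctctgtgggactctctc
Chil3: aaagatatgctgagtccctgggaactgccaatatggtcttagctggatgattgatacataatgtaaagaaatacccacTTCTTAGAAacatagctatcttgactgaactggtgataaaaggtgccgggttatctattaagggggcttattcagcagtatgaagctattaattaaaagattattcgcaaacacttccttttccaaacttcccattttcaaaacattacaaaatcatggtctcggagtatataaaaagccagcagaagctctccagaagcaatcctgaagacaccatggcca
Socs3: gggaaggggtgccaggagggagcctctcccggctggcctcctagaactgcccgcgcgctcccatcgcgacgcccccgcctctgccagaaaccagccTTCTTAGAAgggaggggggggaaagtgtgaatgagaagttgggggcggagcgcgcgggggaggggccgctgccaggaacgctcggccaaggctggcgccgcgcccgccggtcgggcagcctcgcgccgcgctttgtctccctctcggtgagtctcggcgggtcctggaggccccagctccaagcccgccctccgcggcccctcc
Of all 32851 promoters of this length, 6.95% hold the STAT6 palindrome and 8.30% the STAT3 palindrome. Neither was found in these windows of Il4ra, Il13ra1, Mgl2 and Stat6. A match is a description of the letters only.

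Levels in CPM per kilobase of exon allow the genes to be ordered. In Aif1-/- BMMs the order was Stat6 (45.0 ± 0.236), Il10rb (34.0 ± 0.861), Il10ra (21.4 ± 0.627), Il4ra (20.2 ± 0.377), Il13ra1 (7.12 ± 0.312), Socs3 (2.81 ± 0.114), Il10 (0.684 ± 0.295) and Mgl2 (0.0959 ± 0.0601), with Chil3 and Retnla at 0 (SD, n = 3). In WT BMMs it was Stat6 (41.4 ± 3.83), Il10rb (33.9 ± 2.37), Il4ra (14.8 ± 1.45), Il10ra (14.0 ± 0.609), Il13ra1 (8.82 ± 0.659), Socs3 (2.93 ± 0.343), Mgl2 (0.242 ± 0.0929) and Il10 (0.0511 ± 0.0491). Il4ra and Il10ra overlapped in WT BMMs but not in Aif1-/- BMMs, and Il10 and Mgl2 exchanged places. The order of Il4ra and Il10ra depends on the length used: with the longest transcript in place of all exons, Il4ra was 23.1 ± 0.430 and Il10ra 21.4 ± 0.627 in Aif1-/- BMMs, and 16.9 ± 1.66 and 14.0 ± 0.609 in WT BMMs (SD, n = 3), with no overlap between the genes in either genotype. Il10rb and Stat6 then lay at 46.4 ± 1.18 and 52.5 ± 0.275 in Aif1-/- BMMs, and at 46.3 ± 3.23 and 48.3 ± 4.46 in WT BMMs, where they overlapped. Stat6 lay at percentile 92.7 of tested genes by level and Il10 at 7.9. Il4ra shares 9.51% of its exon bases with Gm44876 on the opposite strand. The library kit was stranded and the counting used default settings, but whether antisense reads entered the Il4ra counts is not known.

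The balance between receptor chains was read within each library, for ratios chosen after the values were seen. Il4ra over Il13ra1 was 2.76, 2.88 and 2.90 in Aif1-/- BMMs, against 1.47, 1.65 and 1.95 in WT BMMs. Il4ra over Il2rg was 2.13, 1.68 and 1.70 in Aif1-/- BMMs, against 0.743, 0.726 and 0.762 in WT BMMs. Il10ra over Il10rb was 0.640, 0.634 and 0.615 in Aif1-/- BMMs, against 0.375, 0.456 and 0.412 in WT BMMs. These 3 ratios did not overlap between genotypes, and neither did the other 2 compared, Il2rg over Il13ra1 and Stat6 over Stat3. Of single tested genes, 35.7% did not overlap, and the share over gene pairs was not computed. Most of the ratios hold a gene already called, so their separation is a description. With 3 libraries against 3, an exact two-sided permutation test cannot go below 0.1, which was the p and the adjusted p of all 5 ratios. Il2rg shares 30.5% of its exon bases with Gm20489 on the same strand, so its level may be understated in every library.

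**Figure D3:**
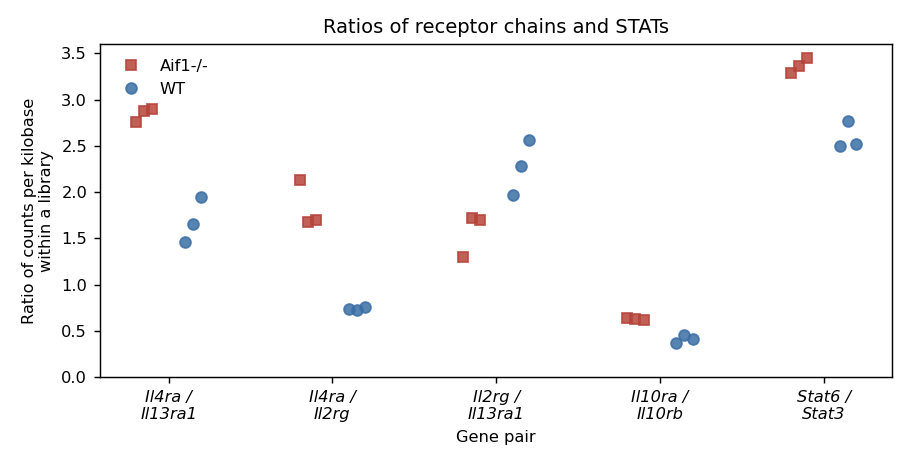
Ratios of counts per kilobase of exon within each library, Aif1-/- left of WT; points are libraries. Il4ra over Il13ra1 and Il10ra over Il10rb are higher in all Aif1-/- libraries, and Il2rg over Il13ra1 is lower.

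Around Il10, 12 of 13 listed regulators of its transcription and mRNA decay were tested, 4 were higher and none was lower, against 8.04% higher and 10.5% lower of all tested genes. This list and the other pathway lists were chosen with earlier results of these data known, so their shares are descriptions. The 4 higher ones were Bhlhe40 (0.53, edgeR adjusted p = 0.000290), Prdm1, which encodes BLIMP1 (2.32, adjusted p = 0.000341), Maf (0.50, adjusted p = 0.00111) and Creb1 (0.29, adjusted p = 0.0400). The Creb1 call was lost without Aif1-/- replicate 1 or 2 or WT replicate 1 and with upper-quartile factors or library totals alone. The list was not split into genes that raise Il10 and genes that lower it, so a higher regulator has no set meaning for Il10. Maf had 14760 ± 754 normalized counts in Aif1-/- BMMs and 10407 ± 875 in WT BMMs (SD, n = 3 each). Among 10 genes that IL-10 is known to induce, 5 were higher and 2 were lower, and all 10 were tested; of all tested genes 18.6% were called. Ccr1, a chemokine receptor (2.40, adjusted p = 5.05e-06), and Hmox1, which encodes heme oxygenase 1 (1.16, adjusted p = 1.73e-05), were higher, and Cd163, the haemoglobin scavenger receptor (-3.95, adjusted p = 4.72e-07), and Pdpn (-2.12, adjusted p = 1.38e-06) were lower. Tnip3, Fcgr1 and Sbno2, named after their values were seen, were the other higher ones, and the calls of Fcgr1 and Sbno2 were lost without any 1 Aif1-/- replicate or WT replicate 1. Of 8 other IL-10 family genes, 2 were tested; Ifnlr1 had 0, 0 and 0 counts in Aif1-/- BMMs, against 23, 14 and 23 in WT BMMs, which is at least 15.7-fold lower when the 0 of the Aif1-/- libraries together is set to 3 counts, while Il20rb (-0.23, adjusted p = 0.509) did not pass.

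On the IL-4 side, 11 transcription factors of the IL-4 response were tested, 2 higher and 3 lower, against 8.04% higher and 10.5% lower of all tested genes. Pparg had 258 ± 33.6 normalized counts in Aif1-/- BMMs and 700 ± 11.9 in WT BMMs (SD, n = 3 each), and its log2 fold change was -1.44 (edgeR adjusted p = 9.50e-06). Klf4 (-0.75, adjusted p = 0.000473) and Irf4 (-0.78, adjusted p = 0.00450) were lower too, and Myc was higher (0.92, adjusted p = 2.69e-05). Zeb2, named after its values were seen, was the other higher one and lost its call without any 1 Aif1-/- replicate or WT replicate 1 and with upper-quartile factors or library totals alone. Of 20 other M2 effectors, 19 were found among the counted genes and 10 were tested, 3 higher and 3 lower, with the same background. Arg1, which encodes arginase 1, had 946, 762 and 654 raw counts in Aif1-/- BMMs, against 20, 59 and 33 in WT BMMs, a log2 fold change of 4.76 (adjusted p = 3.67e-07). Slc7a2, which encodes an arginine transporter (1.63, adjusted p = 8.43e-08), and Tgm2, which encodes transglutaminase 2 (1.41, adjusted p = 7.56e-07), were also higher, and Folr2 (-0.87, adjusted p = 0.000211), Clec10a and Cdh1 (-2.47, adjusted p = 0.00390, named after its values were seen) were lower. Cdh1 met the low-count filter only through its WT libraries, so its call, counted among the lower ones, is a description.

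**Figure D4:**
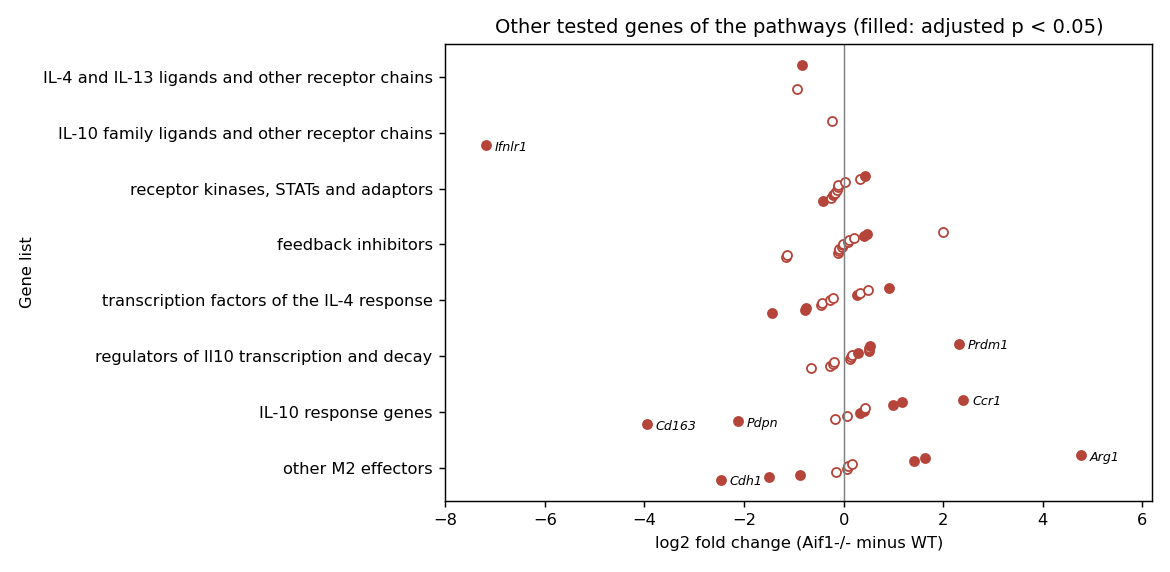
Log2 fold changes, Aif1-/- over WT, of the tested genes of each pathway list; filled points passed the test. Regulators of Il10 that passed are all above 0, in a list not split into genes that raise Il10 and genes that lower it. The other M2 effectors that passed lie on both sides of 0, 3 higher and 3 lower. Cdh1 and Ifnlr1 met the low-count filter only through their WT libraries, so their calls are descriptions.

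**Figure D5:**
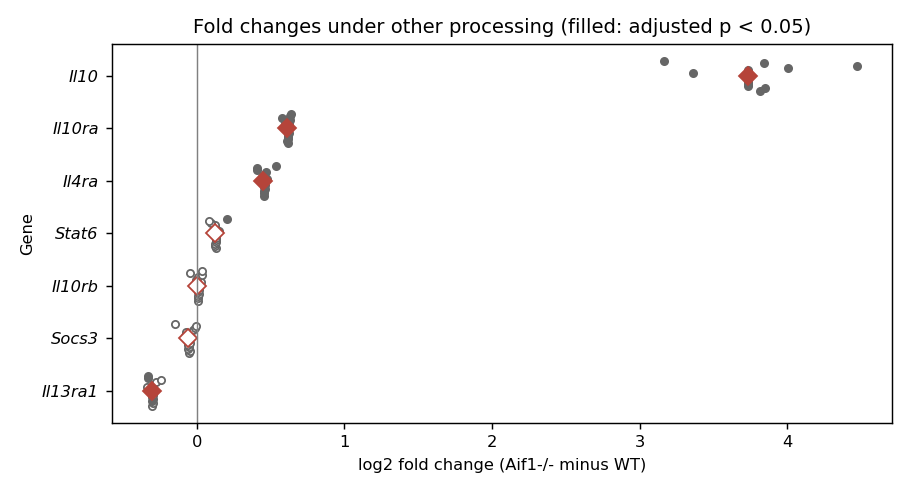
Log2 fold changes of the tested members under the main analysis and the 15 alternatives; diamonds are the main analysis, circles the alternatives, and filled symbols passed the threshold. Il4ra and Il10ra passed in every alternative, Il10 in all 14 that could test it, and Il13ra1 in 7. Il10 met the default low-count filter only through its Aif1-/- libraries, so its calls are descriptions.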

How the data were processed

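RNA was sequenced from 6 libraries, 3 Aif1-/- and 3 WT, assigned from the sample labels. The deposited values are raw counts per gene, made by the authors from ribosome-depleted, single-end reads that were trimmed (Trim Galore 0.5), aligned to GRCm38 at no more than 1 location (TopHat2 2.0.13) and counted on Ensembl genes (HTSeq 0.6.1p1). The summary rows that name no gene, of which unmatched reads took 25.5% to 40.4% of a library, stayed out of library sizes and tests. Because a read kept 1 location, near-identical genes can exchange reads.

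Counts were analysed with edgeR 4.0.16 (R 4.3.3, limma 3.58.1), using TMM, the default expression filter (17406 genes) and the quasi-likelihood test on genotype. Standard errors were derived from the log2 fold change and the F value. Intervals and floors (3 counts) cover counting error only, except those of fold changes. Coordinates came from GENCODE M21, which matched 47310 of 47729 genes. The steps were tested on simulated data. DESeq2 1.42.0, limma-voom, other scalings, other filters, a replicate block, a covariate and leaving out each library were alternatives.

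The members and lists were chosen with earlier results of these data known. Named genes are all 10 members, Il4, Il13, the 4 smallest adjusted p of each list and paralogs with at least 10 counts in some library. One gene that this rule names is not reported here.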

Additional observations from a re-analysis of the deposited data

How the results depend on the processing

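Il4ra and Il10ra passed under all 15 alternatives, at log2 fold changes of 0.41 to 0.54 and 0.58 to 0.64. Il10 passed under the 14 that could test it, at 3.17 to 4.47. Because it met the default low-count filter only through its Aif1-/- libraries, these calls of Il10 are descriptions. Members called lower fell to 0, the call of Il13ra1 being lost, under DESeq2, limma-voom, no filter on low counts and the replicate block, and ranged from 0 to 1 when each library was left out. Genes called over the whole table numbered 5517 with the share of reads matched to no gene as a covariate, under which Stat6 passed (0.15, adjusted p = 0.0252), and 2040 to 4889 when each library was left out. The log2 fold change of Il10rb, which did not pass, ranged from -0.0501 to 0.0353 as each library was left out and changed sign without Aif1-/- replicate 2 or WT replicate 2. With the replicate block, 2872 genes were called, and the calls of Il13ra1 (adjusted p = 0.0518), Jak1 (0.0777) and Zeb2 (0.0680) were lost, and no other call among the members and the named genes of the pathway lists was. Same-numbered libraries had correlations of 0.06, -0.08 and -0.09 in their deviations from the genotype means, so the numbers were not taken to pair the libraries. With exon length taken from the longest transcript, mean levels over the 6 libraries were 20.0 CPM per kilobase for Il4ra (17.5 with all exons), 46.3 for Il10rb (33.9), 3.25 for Socs3 (2.87) and 50.4 for Stat6 (43.2). The depth limits Il10, Mgl2, Chil3 and Retnla most.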
